A study of Mus musculus with 23 samples.

Results

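The genes described here are the axon guidance ligands and receptors measured in mouse retinal organoids: the semaphorins of classes 3 to 7 with plexins and neuropilins, the ephrins with Eph receptors, the slits with Robo receptors, and the netrins and netrin-G proteins with DCC and the UNC5 receptors. They were chosen by gene name among protein-coding genes outside patch sequences, by a rule that reads no measured value, although earlier results of these data were known, and came to 70 of the 52143 genes in the deposited table. Of these, 36 encode ligands and 34 encode receptors, and none was at 0 in all 23 libraries.

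The organoids were grown from 1 induced pluripotent stem cell clone that carries Nrl-GFP, a reporter read from the promoter of the rod factor Nrl. Each RNA sample came from neural retina dissected out of 12 organoids and was sequenced as a stranded poly(A) library, so every value is an average over all cell types of that tissue. At day 32 with FGF1 there were 2 libraries with docosahexaenoic acid (DHA), 3 with linoleic acid (LA) and 3 with albumin carrier alone (BSA). At day 32 without FGF1 there were 3 libraries with DHA, 3 with LA and 3 with BSA, and at day 26 there were 2 with DHA, 2 with LA and 2 with BSA. Both fatty acids were bound to BSA and given at 26 µM from day 10, and FGF1 was given at 200 ng/ml from day 26. All groups shared a DMEM/F12 medium with N2, taurine, 9-cis retinal and IGF1, to which non-essential amino acids, B27 without vitamin A and fetal bovine serum were added from day 26. A comparison of day 32 with day 26 therefore holds 6 days of age and the change of medium together, and with FGF1 also that factor. The labels call the samples biological replicates, and all p-values measure the spread between these samples.

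Guidance ligands are secreted or membrane-bound proteins that attract or repel the tips of growing neurites through receptors on them. In the developing retina, ephrins and Eph receptors are expressed in gradients that set where ganglion cell axons end in the brain. Netrin leads those axons out of the eye at the optic disc, slits keep them on course, and semaphorins and plexins sort the processes of amacrine, bipolar and ganglion cells into layers of the inner plexiform layer. Many of these proteins also act outside axons, for example in vessels and at synapses.

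The 23 libraries fell into 12 deeper libraries, with 16029580 to 20510550 counts, and 11 shallower ones, with 10405663 to 11888224 counts. Replicates 1 and 2 at day 32 with FGF1 were deeper in every medium, as was the whole of day 26. Replicate 3 at day 32 with FGF1, present in LA and BSA, was shallower, as was the whole of day 32 without FGF1, and the authors' normalized table leaves out 5 of these 11. Mitochondrial transcripts took on average 3.59% of counts in the deeper set, 8.39% in the 6 shallower libraries that the authors kept and 10.8% in the other 5. Groups were compared within a set wherever the design allowed it. Markers of neural retina were present in the deeper libraries: 13 photoreceptor genes summed to 8128 to 13210 counts scaled by TMM-adjusted library total (CPM) at day 32 with FGF1 and 4832 to 7057 CPM at day 26. The 15 ganglion cell genes, from the cells whose axons these cues guide in the eye, summed to 385 to 538 CPM and 481 to 701 CPM at the same stages.

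Most of the guidance families were expressed. In TPM, counts per transcript length scaled to one total per library, the netrin-G ligand Ntng2 was among the highest, at 135 ± 19.2 TPM at day 32 with FGF1 and 207 ± 86.6 TPM at day 26 (mean ± SD, n = 6 libraries each). Epha8, an EphA receptor, averaged 41.1 ± 16.5 TPM at day 32 with FGF1 and 216 ± 50.4 TPM at day 26. The secreted semaphorin Sema3f averaged 135 ± 12.3 TPM and 125 ± 30.1 TPM at the same stages, a difference within the spread between libraries. Among receptors, Plxnb2, a receptor for class 4 semaphorins, was at 108 ± 14.9 TPM at day 32 with FGF1 and 129.6 ± 20.4 TPM at day 26. The slit receptor Robo2 was at 58.8 ± 6.58 TPM and 68.5 ± 6.08 TPM. The highest slit was Slit2, at 97.5 ± 22.6 TPM at day 32 with FGF1 and 70.8 ± 8.47 TPM at day 26, the highest ephrin-B was Efnb2, at 73.1 ± 20.3 TPM and 101 ± 20.2 TPM, and the highest EphB receptor was Ephb2. Neuropilins, the co-receptors of class 3 semaphorins, were lower, with Nrp1 at 10.1 ± 1.69 TPM at day 32 with FGF1 and 10.4 ± 1.47 TPM at day 26. Of the netrins, Ntn4, a netrin of basement membranes, was at 9.28 ± 2.52 TPM and 5.22 ± 0.429 TPM, and Ntn1, the ligand of DCC, at 0.994 ± 1.1 TPM and 0.250 ± 0.311 TPM. The endothelial receptor Robo4 (0.271 TPM at day 32 with FGF1 and 0.36 TPM at day 26) and the netrin Ntn5 (0.208 TPM and 0.122 TPM) did not pass the filter on low counts, which left 68 genes to test.

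Day 32 with FGF1 was first set against day 26 within the deeper libraries, 6 at each stage. By edgeR with a Benjamini-Hochberg adjusted p under 0.05, 14 of the 68 guidance genes were higher at day 32 with FGF1, 21 were lower and 33 did not pass. Over all 20111 genes tested, 28.7% passed, 14.6% higher and 14.1% lower, so 51.5% of the guidance genes passed against 28.7% of all genes. DESeq2 also gave 35 guidance genes, where 29.3% of all genes passed. The median log2 fold change was −0.21 over the guidance genes and 0.00 over all genes. Ligands gave 7 higher and 10 lower of 35, with a median of −0.11, and receptors 7 higher and 11 lower of 33, with a median of −0.23. In 10 guidance genes every library of day 32 with FGF1 was above every library of day 26, and in 12 every one was below, where 8.53% and 7.69% of all genes did so. In bulk tissue, fewer cells of a type and less RNA per cell cannot be told apart, and this holds for every difference given here.

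**Figure D1:**
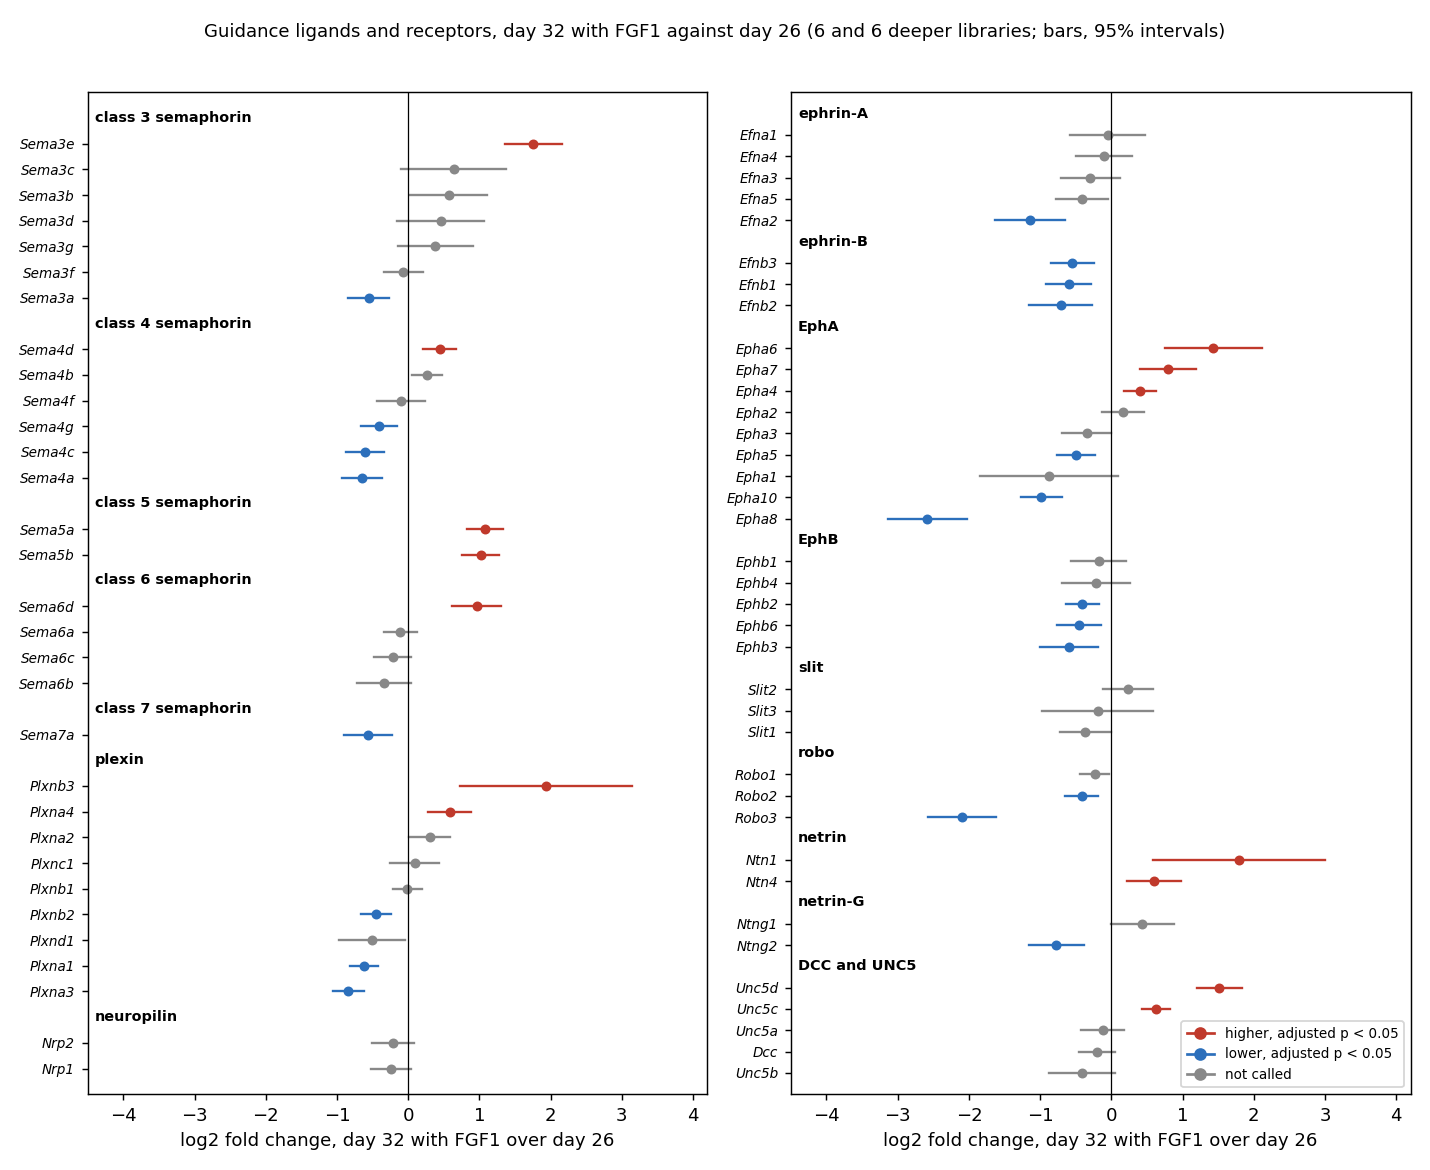
Log2 fold change (x axis) of each of the 68 tested guidance genes at day 32 with FGF1 over day 26, by family, with 95% intervals (bars) from 6 and 6 deeper libraries; red, higher and blue, lower at an adjusted p under 0.05, grey, not passing. Epha8 and Robo3 lie furthest left, all 3 ephrin-B genes lie left of 0, and Sema5a, Sema5b, Sema3e and Unc5d lie right of it.

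The semaphorins, the largest ligand family, moved in both directions. Sema3e, a secreted ligand that binds plexin D1 without a neuropilin, had a lowest, median and highest level of 8.40, 10.5 and 13.4 CPM at day 32 with FGF1, against 2.32, 3.23 and 3.72 CPM at day 26. The stages did not overlap, and Sema3e rose by a log2 fold change of 1.76 (95% interval 1.36 to 2.15, adjusted p = 3.977e-05). Of the 7 class 3 semaphorins 1 rose, 1 fell and 5 did not pass, with a median log2 fold change of 0.45. Sema3a, which repels axons through neuropilin-1 and A plexins, had 8.99, 11.7 and 16.0 CPM at day 32 with FGF1, against 14.4, 18.1 and 19.5 CPM at day 26. It fell by 0.56 on the log2 scale (adjusted p = 0.007706), although the stages overlapped. Sema3f, the neuropilin-2 ligand that was the highest of the class per length, had a log2 fold change of −0.07 (−0.34 to 0.21) and did not pass.

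Both class 5 semaphorins rose; these membrane proteins bind A plexins and, in mice, keep the neurites of inner retinal neurons inside the inner plexiform layer. Sema5a had 59.8, 77.8 and 92.3 CPM at day 32 with FGF1, against 32.4, 35.6 and 46.6 CPM at day 26, with a log2 fold change of 1.08 (0.82 to 1.33, adjusted p = 5.559e-05). Sema5b had 48.4, 53.8 and 67.5 CPM, against 23.1, 27.7 and 31.5 CPM, with a log2 fold change of 1.02 (0.76 to 1.28, adjusted p = 9.43e-05). For both genes every library of day 32 with FGF1 was above every library of day 26. Of their A-plexin receptors, Plxna3 had 48.2, 60.9 and 74.0 CPM at day 32 with FGF1, against 88.0, 113 and 119 CPM at day 26. Plxna3 fell by 0.84 on the log2 scale (adjusted p = 9.281e-05) and Plxna1 by 0.62 (adjusted p = 0.0004131), and neither overlapped between stages. Plxna1 had 86.9 to 132 CPM at day 32 with FGF1, against 144 to 213 CPM at day 26.

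Among the other membrane semaphorins, 4 genes fell and 2 rose. Sema4a had a log2 fold change of −0.65 (adjusted p = 0.002775), Sema4c of −0.61 (adjusted p = 0.003604) and Sema4g, the highest of the class per length, of −0.41 (adjusted p = 0.02043). Sema7a, which is held in the membrane by a lipid anchor and binds plexin C1, had one of −0.56 (adjusted p = 0.01745). Sema4d, the ligand of plexin B1, rose by 0.44 (adjusted p = 0.008307), with 41.3 to 57.1 CPM at day 32 with FGF1 and 33.3 to 37.8 CPM at day 26. The calls of Sema7a and Sema4g were less steady than those of Sema4a, Sema4c and Sema4d: they held in 9 and 7 of the 12 fits that each left out 1 library, and the other 3 held in all 12. With sums of transcript counts in place of the gene counts the adjusted p of Sema4d was 0.0512. Without replicate 2 of DHA at day 26, of BSA with FGF1 or of LA with FGF1, the adjusted p of Sema7a was 0.0588, 0.0536 and 0.0507. Sema6d rose by 0.96 (0.62 to 1.3, adjusted p = 0.0008873), but its levels of 12.0, 19.6 and 63.9 CPM at day 32 with FGF1 overlapped with those of day 26, at 8.46, 12.3 and 16.3 CPM. The 2 highest values were both from LA medium.

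Of the other plexins, Plxnb2 fell by 0.46 (adjusted p = 0.004847), with 211 to 326 CPM at day 32 with FGF1 and 328 to 416 CPM at day 26, while Plxnb1 had a log2 fold change of −0.01 (−0.22 to 0.19). Plxna4, which together with neuropilins or alone receives class 3 and class 6 semaphorins, rose by 0.58 (adjusted p = 0.008467). Plexin D1, the receptor of Sema3e, had a log2 fold change of −0.51 (−0.98 to −0.04) and did not pass (adjusted p = 0.0994). Neither neuropilin passed: Nrp1 had a log2 fold change of −0.24 (−0.53 to 0.04) and Nrp2 one of −0.21 (−0.50 to 0.08).

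In the ephrin and Eph families, which signal between touching cells and in both directions, 4 of 8 ephrins fell and none rose. Efna2, an ephrin-A known from the map of ganglion cell axons, had 4.75, 6.47 and 8.89 CPM at day 32 with FGF1, against 9.20, 14.1 and 20.5 CPM at day 26. Every library of day 32 with FGF1 was below every library of day 26, and the gene fell by 1.14 on the log2 scale (95% interval −1.63 to −0.64, adjusted p = 0.003025). All 3 ephrin-B genes fell: Efnb2 had a log2 fold change of −0.71 (adjusted p = 0.02172), Efnb1 of −0.60 (adjusted p = 0.009094) and Efnb3 of −0.55 (adjusted p = 0.01256). For Efnb2 the stages overlapped, with 86.5 to 209 CPM at day 32 with FGF1 and 135 to 317 CPM at day 26. Its adjusted p was 0.066 without replicate 2 of BSA with FGF1 and 0.0648 without replicate 2 of LA with FGF1. Of the EphB receptors of these ligands, Ephb3 (log2 fold change −0.59, adjusted p = 0.03432), Ephb2 (−0.41, adjusted p = 0.01238, 107 to 132 CPM at day 32 with FGF1 and 117 to 176 CPM at day 26) and the kinase-inactive Ephb6 (−0.46, adjusted p = 0.03125) fell, and Ephb1 and Ephb4 did not pass. The calls of Ephb3 and Ephb6 held in 4 and 6 of the 12 fits that each left out 1 library.

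EphA receptors diverged, with 3 lower and 3 higher of 9. Epha8 had a lowest, median and highest level of 56.4, 77.1 and 152 CPM at day 32 with FGF1, against 422, 553 and 639 CPM at day 26. The stages lay far apart, and the log2 fold change of −2.58 (95% interval −3.14 to −2.03, adjusted p = 2.998e-05) was the largest fall of the 68 genes. Epha10, whose kinase domain is also inactive, had 33.7, 35.8 and 53.9 CPM at day 32 with FGF1, against 66.5, 83.1 and 88.4 CPM at day 26. It fell by 0.99 on the log2 scale (−1.28 to −0.70, adjusted p = 0.0002461) with no overlap between stages. Epha5, a receptor of ephrin-A ligands, fell by 0.50 (adjusted p = 0.009274). Epha7 rose by 0.80 (adjusted p = 0.006396), with 30.2, 34.6 and 40.2 CPM at day 32 with FGF1, against 12.5, 19.1 and 30.6 CPM at day 26, a small overlap. Epha4, which binds both ephrin classes, rose by 0.40 (adjusted p = 0.01112). Epha6 also passed, with a log2 fold change of 1.43 (adjusted p = 0.005163), but at only 1.14 to 1.76 CPM at day 32 with FGF1 and 0.232 to 0.968 CPM at day 26.

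**Figure D2:**
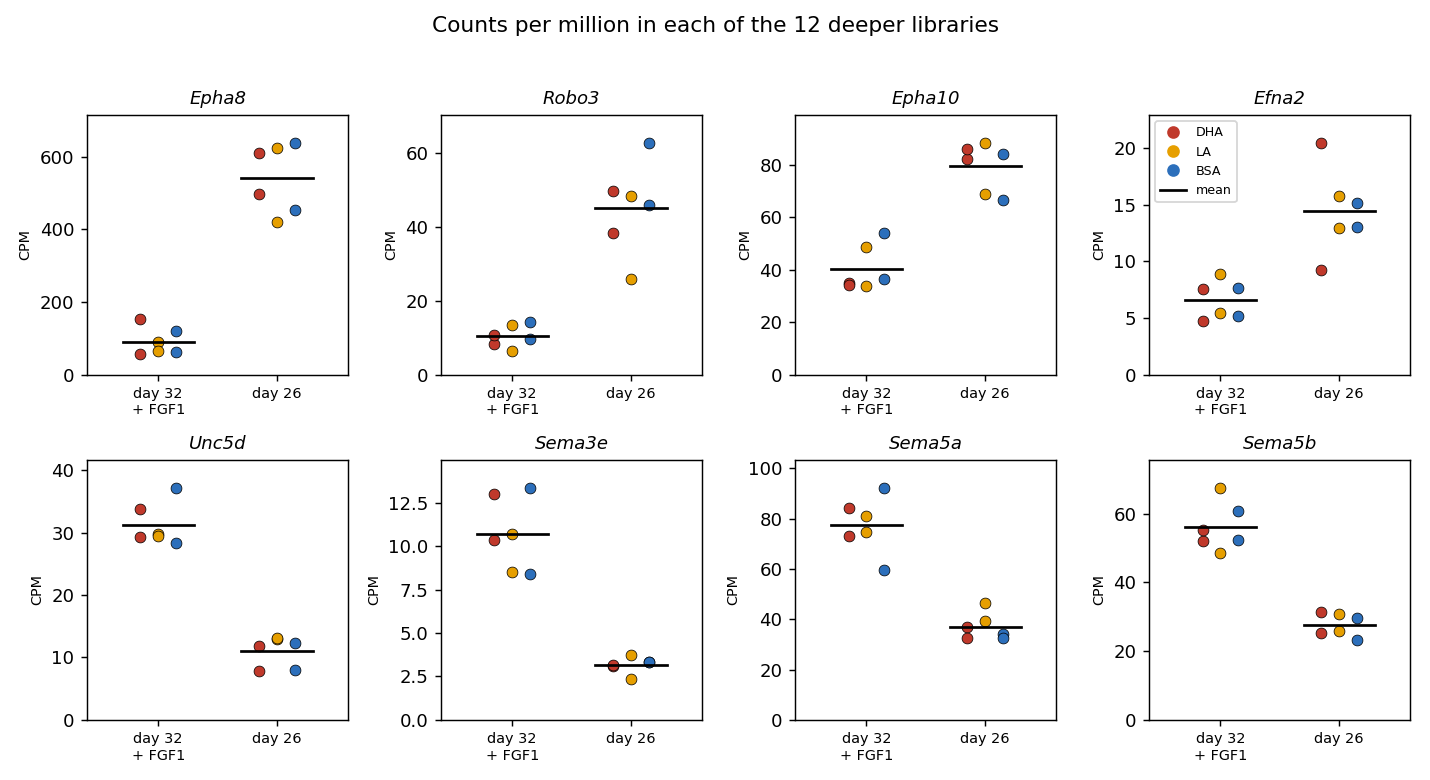
CPM (y axes, linear from 0) of 8 guidance genes in each of the 12 deeper libraries at day 32 with FGF1 (left) and day 26 (right); points are libraries, colours the media, lines the means of 6. In all 8 panels the points of the 2 stages do not overlap: Epha8, Robo3, Epha10 and Efna2 are lower and Unc5d, Sema3e, Sema5a and Sema5b higher at day 32 with FGF1.

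Slits did not pass, while genes of the Robo family fell in part. Slit2 had a log2 fold change of 0.23 (−0.12 to 0.58), Slit1 of −0.36 (−0.73 to 0.00) and Slit3, at 0.627 to 1.88 CPM at day 32 with FGF1, of −0.19. Robo3, the receptor known for steering commissural axons across the midline, had 6.51, 10.2 and 14.4 CPM at day 32 with FGF1, against 26.0, 47.3 and 62.9 CPM at day 26. No library of day 32 with FGF1 reached the lowest of day 26, and Robo3 fell by 2.10 on the log2 scale (95% interval −2.58 to −1.62, adjusted p = 4.279e-05). Robo2, known from the path of ganglion cell axons at the optic chiasm, fell by 0.42 (adjusted p = 0.01141), with 98.5 to 141 CPM at day 32 with FGF1, against 145 to 174 CPM at day 26. Robo1 did not pass (log2 fold change −0.23, −0.44 to −0.03, adjusted p = 0.08775).

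In the netrin families, Unc5d, a repulsive netrin receptor that also binds FLRT proteins, had 28.3, 29.6 and 37.2 CPM at day 32 with FGF1, against 7.84, 12.1 and 13.2 CPM at day 26. Its lowest level at day 32 with FGF1 was above the highest at day 26, and it rose by 1.52 on the log2 scale (1.2 to 1.84, adjusted p = 2.508e-05). Unc5c rose by 0.63 (0.43 to 0.82, adjusted p = 0.0003677), with 42.9 to 54.8 CPM at day 32 with FGF1 and 28.2 to 35.1 CPM at day 26. The other netrin receptors did not pass: Dcc had a log2 fold change of −0.20 (−0.45 to 0.05), Unc5a of −0.12 (−0.42 to 0.18) and Unc5b of −0.41 (−0.87 to 0.05). Of the ligands, Ntn4 rose by 0.59 (adjusted p = 0.02403), a call that held in 5 of the 12 fits that each left out 1 library. Ntng2, which binds a partner on the postsynaptic side, fell by 0.77 (adjusted p = 0.006474), with 57.2, 64.1 and 81.3 CPM at day 32 with FGF1, against 81.8, 96.2 and 181 CPM at day 26. The lowest library of day 26 was just above the highest of day 32 with FGF1.

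Ntn1 and Plxnb3 passed at low levels that single libraries set. Ntn1 had 4.18 and 0.823 CPM in DHA, 1.75 and 7.92 CPM in LA and 0.587 and 0.675 CPM in BSA at day 32 with FGF1, against 0.290 to 2.38 CPM at day 26 (log2 fold change 1.79, 0.59 to 3.00, adjusted p = 0.02979). Plxnb3 had 5.16 CPM in replicate 2 of LA with FGF1 and at most 0.916 CPM in the 5 other libraries of day 32 with FGF1, against 0.114 to 0.486 CPM at day 26 (log2 fold change 1.93, adjusted p = 0.02115). Their calls held in 4 and 7 of the 12 fits that each left out 1 library. Altogether 27 of the 35 calls held in all 12 such fits, in which 27 to 38 guidance genes passed. A fit of all 23 libraries, which adds the 2 shallower libraries with FGF1 to this contrast, left 7 genes higher and 4 lower, where 5.99% of all genes were higher and 3.48% lower.

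The stretch before the start of a gene is shown for 4 genes with no overlap between stages, 2 that rose and 2 that fell, as 250 bases ending at the RefSeq start (GRCm38.p6), printed 5′ to 3′ on the strand of the gene. RefSeq promoters matched 60 of the 70 genes by symbol, and in 37 of these the start lay within 50 bases of the start of the most abundant transcript. Sema3e is at chr5:14025026-14025275 (plus strand), Sema5a at chr15:32244563-32244812 (plus), Epha8 at chr4:136956817-136957066 (minus) and Efna2 at chr10:80179232-80179481 (plus). Capitals mark TGGGAA, the core read by the Notch factor RBPJ.
Sema3e: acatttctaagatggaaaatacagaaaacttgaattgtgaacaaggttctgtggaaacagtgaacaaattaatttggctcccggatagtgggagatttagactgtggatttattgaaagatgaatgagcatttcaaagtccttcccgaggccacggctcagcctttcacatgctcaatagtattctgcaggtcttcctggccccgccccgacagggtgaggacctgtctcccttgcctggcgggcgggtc
Sema5a: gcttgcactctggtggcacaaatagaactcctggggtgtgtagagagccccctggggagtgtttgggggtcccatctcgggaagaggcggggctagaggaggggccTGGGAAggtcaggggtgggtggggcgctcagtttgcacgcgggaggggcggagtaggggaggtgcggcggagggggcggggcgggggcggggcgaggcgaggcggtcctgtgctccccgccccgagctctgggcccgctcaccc
Epha8: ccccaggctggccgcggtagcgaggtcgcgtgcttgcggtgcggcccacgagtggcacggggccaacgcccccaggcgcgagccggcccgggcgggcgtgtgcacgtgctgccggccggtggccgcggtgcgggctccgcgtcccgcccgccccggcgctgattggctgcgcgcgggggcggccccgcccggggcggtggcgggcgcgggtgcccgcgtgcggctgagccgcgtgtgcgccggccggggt
Efna2: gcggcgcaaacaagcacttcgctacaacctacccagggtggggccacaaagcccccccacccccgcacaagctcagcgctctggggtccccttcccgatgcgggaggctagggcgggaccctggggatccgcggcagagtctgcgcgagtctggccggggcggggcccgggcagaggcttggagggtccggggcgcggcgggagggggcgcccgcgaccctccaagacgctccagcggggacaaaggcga

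These sequences differ in base composition: GC content was 48.0% before Sema3e, 72.0% before Sema5a, 84.0% before Epha8 and 73.6% before Efna2, and the median over all 32851 promoters of the table was 52.4%. Motifs were searched on both strands: TAATCC, read by the photoreceptor factors CRX and OTX2, CAGCTG, an E-box of proneural factors, and TGGGAA. Guidance promoters were counted only within 50 bases of the start of the most abundant transcript. The shares over all promoters had no such filter. Median GC content was 67.6% in the counted promoters of genes that rose and 69.2% in those of genes that fell. The first was in none of the 6 promoters of genes that rose, none of the 11 of genes that fell and 6.25% of all promoters. The second was in 1 of 6, 2 of 11 and 13.0%. The third was in 3 of 6, 1 of 11 and 21.6%, and in Sema5a it lay 144 bases before the start. CAGCTG ends in the letters that TGGGAA begins with, so matches of these motifs can overlap. The matches describe letters in a window, not binding.

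Transcripts of one gene were also compared between the stages. Of 32 guidance genes with a mean of at least 200 counts and a leading transcript under 90% of the counts, Robo1 was the only one whose leading share did not overlap between stages and differed by at least 10 percentage points, and it was singled out after its values were seen. Over all 7234 genes considered, 1.59% met the same criteria. The transcript from the upstream start (ENSMUST00000232205) held 70.4% to 85.0% of the Robo1 counts at day 32 with FGF1, against 58.0% to 65.0% at day 26, with means of 77.8% ± 5.15 and 62.0% ± 2.79 (SD, n = 6 each). The transcript from the downstream start (ENSMUST00000023600) held 18.3% ± 4.87 at day 32 with FGF1, against 35.3% ± 2.55 at day 26. Both are annotated as protein-coding and start on the plus strand of chromosome 16, at 72563700 and 72663149. At day 32 with FGF1 the upstream share was 80.8% and 85.0% in DHA, 70.4% and 73.8% in LA and 78.0% and 78.8% in BSA. The shares rest on the authors' estimated counts of transcripts that share exons, and no test of them was made. In Robo3, whose total fell, protein-coding transcripts held on average 29.5% of counts at day 32 with FGF1 and 21.1% at day 26. The rest was mostly retained introns and transcripts annotated for nonsense-mediated decay. Its leading transcript, of the latter kind, held 18.0% to 48.75% at day 32 with FGF1 and 31.1% to 53.0% at day 26. That share overlapped between the stages.

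**Figure D3:**
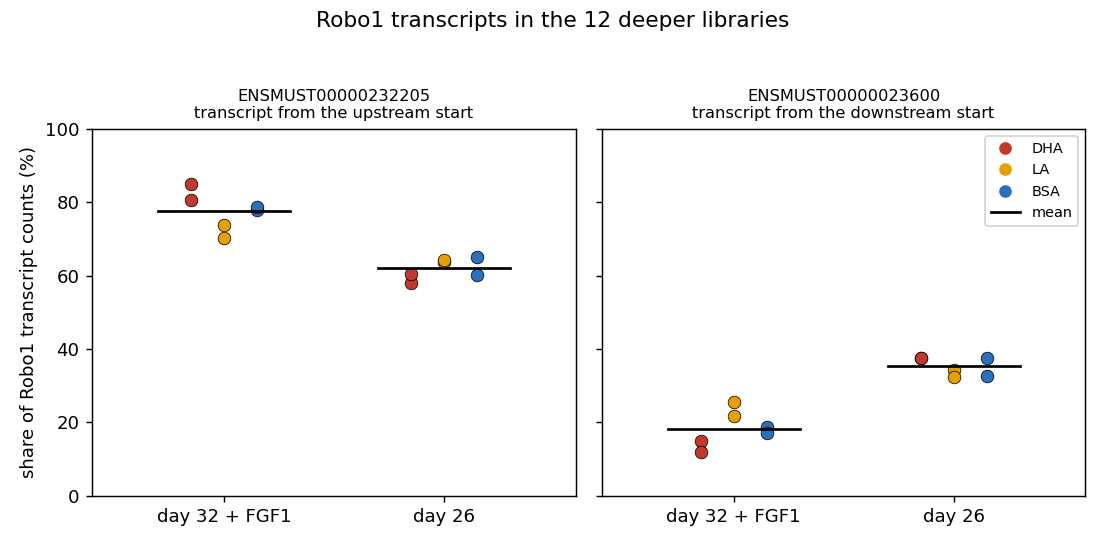
Share of Robo1 transcript counts (y axis, %) held by the transcripts from the upstream (left) and downstream start (right) in each of the 12 deeper libraries; points are libraries, colours the media, lines the means of 6. The upstream share is 70.4% to 85.0% at day 32 with FGF1 and 58.0% to 65.0% at day 26.

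Genes around the guidance families were counted in the same comparison, where 14.6% of all genes rose and 14.1% fell. Of 38 other guidance cues and receptors, 9 rose and 6 fell, with a median log2 fold change of 0.02. The smallest p-values belonged to the adhesion protein Cntn1, which rose by 0.82, Draxin, a netrin-binding repellent that fell by 1.86 on the log2 scale, and dystroglycan, encoded by Dag1, which rose by 0.83. Of 50 genes that act inside the growth cone, 7 rose and 16 fell, with a median of −0.10. Those with the smallest p-values all fell: the GTPase Rnd2 by 1.2, the actin oxidase Mical1, which acts below plexins, by 1.51, and the kinase Pak1 by 0.99.

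Markers of retinal cell types were counted too, where again 14.6% of all genes rose and 14.1% fell. The part of these markers in the guidance results was not tested. Of 10 bipolar markers 8 rose and 1 fell, of 13 photoreceptor markers 7 rose and 2 fell, and of 14 Müller glia or progenitor markers 4 rose and 8 fell. Among the last list the progenitor genes Hes5 and Fgf15 had log2 fold changes of −3.69 and −3.53, and the glial genes Slc1a3 and Rlbp1 of 2.32 and 2.03. Of 15 ganglion cell markers 3 rose and 3 fell, and of 12 amacrine or horizontal cell markers 3 rose and 5 fell. The summed level of the bipolar list was 953 to 1375 CPM at day 32 with FGF1 and 980 to 1194 CPM at day 26, that of the Müller or progenitor list 1417 to 2122 CPM and 1403 to 1835 CPM, and that of the amacrine or horizontal list 736 to 1127 CPM and 909 to 1402 CPM. No gene of these 5 lists was at 0 in both libraries of any of the 6 groups. Of the lists for other tissues, 3 of 14 mesenchyme genes rose and 0 fell, 0 of 8 pigment cell genes rose and 3 fell, 1 of 5 endothelial or blood genes rose, and 1 of 9 non-retinal neuron or glia genes fell. GC content differed with direction as well, with a median of 48.0% for the transcripts of the 14 guidance genes that rose, 57.3% for the 21 that fell and 56.2% for those that did not pass. Across the 68 genes, GC content and log2 fold change correlated with r = −0.399 (rho −0.429), a description over genes that share libraries; with per-library GC offsets 14 genes were higher and 23 lower, where 13.5% of all genes were higher and 17.7% lower.

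The stage comparison was then made in each medium, 2 libraries against 2, with the spread shared over all 12. In DHA 5 guidance genes rose and 7 fell, where 10.4% of all genes passed (6.08% higher, 4.28% lower). In LA 5 rose and 3 fell, where 5.16% passed (3.34% higher, 1.81% lower), and in BSA 5 rose and 5 fell, where 6.83% passed (4.25% higher, 2.58% lower). By DESeq2 19, 14 and 16 guidance genes passed in DHA, LA and BSA, where 14.4%, 8.63% and 10.8% of all genes did so. Unc5d, Sema3e, Sema5a, Sema5b, Epha8 and Robo3 passed in all 3 media. Epha8 had 152 and 56.4 CPM in DHA, 89.5 and 64.7 CPM in LA and 119.7 and 62.7 CPM in BSA at day 32 with FGF1, against 496 and 609 CPM in DHA, 422 and 625 CPM in LA and 453 and 639 CPM in BSA at day 26. Its log2 fold change was −2.41 in DHA, −2.76 in LA and −2.58 in BSA. Replicate 1 was the higher of each pair at day 32 with FGF1 and the lower of each pair at day 26. Robo3 had log2 fold changes of −2.22, −1.89 and −2.18 in DHA, LA and BSA, and Unc5d of 1.69, 1.17 and 1.69. Sema6d passed in LA alone, at 1.69 (adjusted p = 0.005541), and Robo1 in DHA alone, at −0.67 (adjusted p = 0.02555). These counts hung on single libraries. In DHA 6 passed without replicate 2 of day 26. In LA none passed without replicate 2 of day 32 with FGF1, and 5 and 4 without replicates 1 and 2 of day 26. In BSA none passed without replicate 2 of day 26, 5 without replicate 1 of day 26 and 2 without replicate 2 of day 32 with FGF1.

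Between media, no guidance gene passed in the main edgeR fits, which used the filter on low counts, every library of the comparison and no replicate term. A few passed under other settings, given with the processing below. Among them was Sema6d for DHA against LA at day 32 with FGF1, with a replicate block. At day 32 with FGF1, DHA against LA gave 0 of 68 where 0.00994% of all genes passed, 7 at an unadjusted p under 0.05 where 7.61% of all genes did so, and 2 by DESeq2, where 0.731% did so. Sema6d, a membrane semaphorin that binds plexin A1, had 16.0 and 12.0 CPM in DHA, 39.8 and 63.9 CPM in LA and 17.6 and 21.6 CPM in BSA. Both LA libraries were above all others of that stage, with a log2 fold change of −1.89 for DHA against LA (−2.48 to −1.29, edgeR adjusted p = 0.1218; 3.352e-07 by DESeq2). Robo1 had 44.2 and 40.5 CPM in DHA, 71.2 and 66.4 CPM in LA and 56.2 and 63.4 CPM in BSA. Both DHA libraries were the lowest, with a log2 fold change of −0.70 for DHA against LA (−1.06 to −0.34, edgeR adjusted p = 0.2618; 0.0338 by DESeq2). Plxnb3, near the limit of detection in DHA, had the next smallest p (−2.71, adjusted p = 0.4268). Without replicate 1 of LA with FGF1 the edgeR adjusted p of Sema6d for DHA against LA was 0.0183, and 1 guidance gene passed.

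**Figure D4:**
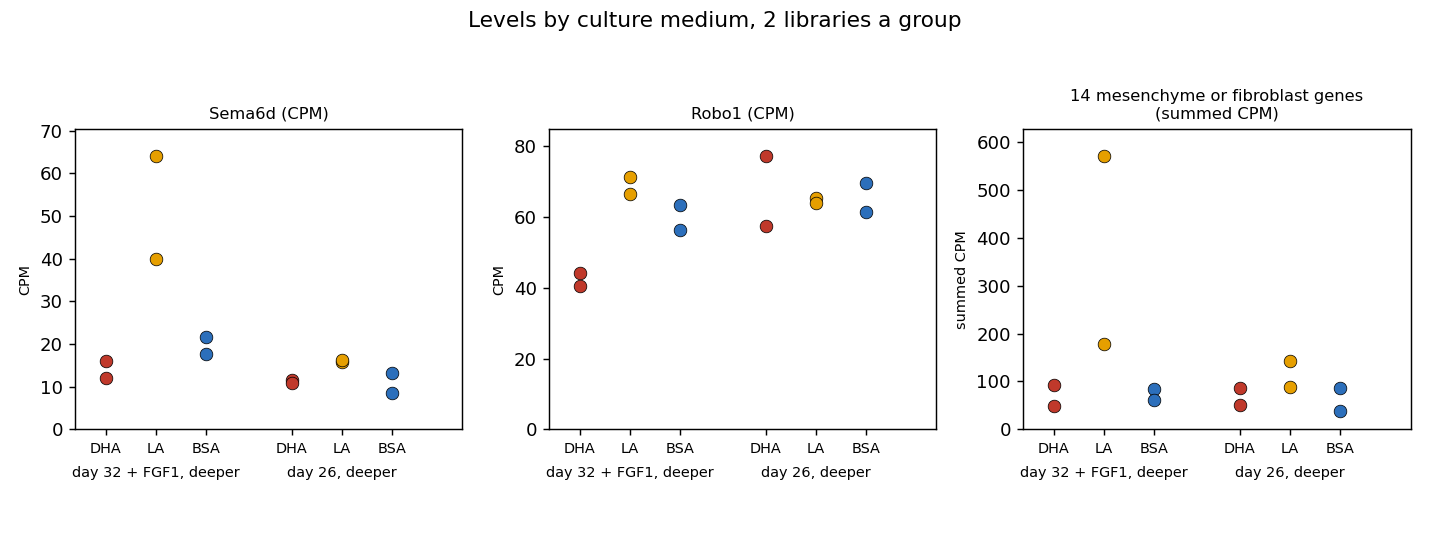
CPM of Sema6d (left) and Robo1 (middle) and the summed CPM of 14 mesenchyme or fibroblast genes (right) in each deeper library (points), by medium at day 32 with FGF1 and at day 26; all y axes are linear from 0. LA libraries with FGF1 are highest for Sema6d (39.8 and 63.9 CPM) and for the mesenchyme genes (570 and 178 CPM), and DHA libraries with FGF1 lowest for Robo1 (44.2 and 40.5 CPM).

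The level of mesenchyme genes also differed between media at that stage. The 14 genes of that list summed to 93.0 and 49.3 CPM in DHA, 570 and 178 CPM in LA and 84.9 and 61.7 CPM in BSA. Both LA libraries were above all others of that stage, as for Sema6d, but within LA replicate 1 was the higher for the mesenchyme genes and replicate 2 for Sema6d. None of the 14 passed adjustment for DHA against LA or for LA against BSA. At an unadjusted p under 0.05 there were 12 for DHA against LA (7.61% of all genes), with a median log2 fold change of −2.03. For LA against BSA there were 13 (3.44% of all genes), with a median of 2.22. These genes share the same libraries, so the counts are not of separate observations. No mesenchyme gene was at 0 in both libraries of a group. Pigment cell genes summed to 27.5 and 18.9 CPM in DHA, 334 and 217 CPM in LA and 194 and 32.7 CPM in BSA. Non-retinal neuron or glia genes summed to 139 CPM in replicate 2 of LA and 48.4 to 72.7 CPM in the other deeper libraries of that stage. Müller glia or progenitor genes summed to 2122 CPM in replicate 2 of LA and 1417 to 1716 CPM in the others. The part of these lists in the Sema6d and Robo1 levels was not tested.

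The other media comparisons at day 32 with FGF1 gave like counts. LA against BSA had 0 of 68, where 0.0149% of all genes passed, with 4 at an unadjusted p under 0.05 (3.44% of all genes) and 1 by DESeq2, where 0.214% of all genes passed. Sema6d had a log2 fold change of 1.40 (0.82 to 1.99, adjusted p = 0.3943), Ntn1 of 2.92 and the secreted semaphorin Sema3c of 1.82 (adjusted p = 0.7724). DHA against BSA had 0 of 68, where 0% of all genes passed, with 4 at an unadjusted p under 0.05 (2.71%) and 0 by DESeq2. Its smallest p-values were those of Robo1 (log2 fold change −0.50), Plxna1 (−0.42) and Sema4a (−0.51), each with an adjusted p of 1. Whether the DHA to LA difference itself differed between the stages was tested as an interaction: no gene passed by edgeR, 4 guidance genes had an unadjusted p under 0.05 (6.32% of all genes) and 0 passed by DESeq2, where 0.313% of all genes did so. Sema6d had an interaction of −1.37 (−2.20 to −0.54, adjusted p = 0.5504), Robo1 of −0.76 (adjusted p = 0.5848) and Plxna3 of −0.62.

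At day 26 the media gave 0 of 68 in each comparison, by edgeR and by DESeq2, where 0% of all genes passed. DHA against LA had 2 guidance genes at an unadjusted p under 0.05 (3.17% of all genes), Ephb1 at −0.89 and Dcc at −0.46, and Ntn1 at −1.93 came next. DHA against BSA had 3 (1.25%), Sema3d at −1.33, Dcc at −0.49 and Plxna1 at −0.34. LA against BSA had 0 (1.77%), with Ntn1 at 2.17, Plxna1 at −0.32 and Sema6d at 0.57 as the smallest p-values. Ntn1 had 0.472 and 0.290 CPM in DHA, 0.540 and 2.38 CPM in LA and 0.302 and 0.341 CPM in BSA. Only replicate 2 of LA stood apart for this gene. Sema6d had 11.5 and 10.9 CPM in DHA, 15.8 and 16.3 CPM in LA and 13.2 and 8.46 CPM in BSA at this stage, again highest in LA.

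Among the 11 shallower libraries, fitted with medium, FGF1 and the authors' choice of libraries as terms, 66 guidance genes were tested and 0 passed between media by edgeR or DESeq2. Of 19484 genes, 0% passed by edgeR, and by DESeq2 0.108% between DHA and LA, 0.0873% between DHA and BSA and 0.0667% between LA and BSA. An unadjusted p under 0.05 was reached by 0 guidance genes in the DHA to LA contrast (2.15% of all genes), 1 in that of DHA and BSA (1.99%) and 0 in that of LA and BSA (1.73%). The smallest p-values for DHA against LA were those of Ephb6 (log2 fold change 1.65), Sema6a (−0.45) and Sema6b (1.82), for DHA against BSA those of Sema3d (1.29), Sema3e (0.57) and Robo1 (−0.46), and for LA against BSA those of Epha4 (0.42), Sema3e (0.57) and Slit1 (−1.49). With all 23 libraries, compared between media within strata of stage and library set, again 0 of 68 passed by either tool, where 0% of all genes passed by edgeR. By DESeq2 0.0142% of all genes passed in each contrast with DHA and 0.0189% in LA against BSA. DHA against LA then had 4 at an unadjusted p under 0.05 (4.53% of all genes), led by Sema6d at −0.83 (−1.27 to −0.39, adjusted p = 0.9289), Sema6a at −0.31 and Plxnb3 at −1.68. DHA against BSA had 1 (1.96%), Robo1 at −0.33, followed by Sema6a at −0.22 and Plxna1 at −0.38. LA against BSA had 7 (3.02%), led by Sema6d at 0.75 (adjusted p = 1), Ntn1 at 1.90 and Sema3c at 1.13.

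FGF1 could be compared with no FGF1 within one library set only among the shallower libraries. There 2 libraries had FGF1, replicate 3 of LA and of BSA, and 9 had none. Both with FGF1 were among the 5 that the authors left out, and the fit has a term for that choice. The fold changes therefore rest mainly on the left-out libraries, which without FGF1 were replicate 1 of each medium. The CPM ranges without FGF1 cover all 9. By edgeR 0 of 66 guidance genes passed, where 0% of all genes did so, with 2 at an unadjusted p under 0.05 (1.91% of all genes) and 0 by DESeq2, where 0.0565% of all genes passed. The median log2 fold change was −0.23, against −0.03 over all genes. Ntng1, the other netrin-G ligand, had 4.85 and 2.74 CPM with FGF1, against 4.97 to 12.5 CPM without, below all 9, with a log2 fold change of −1.60 (−2.53 to −0.66, adjusted p = 1). Plxna3 had 5.84 and 3.71 CPM with FGF1, against 7.32 to 16.3 CPM without (−1.24, −2.22 to −0.26, adjusted p = 1), and Sema4f came next with −2.13. Of the genes that rose at day 32 with FGF1 within the deeper libraries, Unc5d had 23.1 and 26.2 CPM with FGF1, against 26.5 to 53.0 CPM without, and so lay just below all 9. Sema3e had 18.9 and 12.0 CPM with FGF1, against 7.71 to 23.5 CPM without, and overlapped. Neither passed. The same 2 libraries, LA and then BSA, stood outside the other 9 for the sums of some marker lists as well. Mesenchyme genes summed to 464 and 338 CPM with FGF1, against 45.1 to 253 CPM without. Photoreceptor genes summed to 4114 and 4295 CPM, against 4476 to 7902 CPM, and bipolar genes to 848 and 876 CPM, against 909 to 1154 CPM. Of these lists 4 of 14, 0 of 13 and 2 of 10 genes had an unadjusted p under 0.05 and none passed, and their part in the guidance levels was not tested. Sums of ganglion cell genes (421 and 478 CPM, against 368 to 524 CPM) lay inside the other 9. So did those of Müller glia or progenitor, pigment cell and non-retinal genes. Amacrine or horizontal genes lay outside in LA only, and endothelial or blood genes in BSA only. Epha8 was low in all 11, with 0.693 and 2.74 CPM with FGF1, against 0.855 to 15.0 CPM without (log2 fold change −1.17, −3.64 to 1.3).

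The remaining contrasts set shallower libraries against groups that were wholly (day 26) or mostly (day 32 with FGF1) deeper, so that day or FGF1 and library set cannot be told apart. Day 32 without FGF1 against day 26 gave 15 guidance genes higher and 38 lower of 68, where 60.9% of all genes passed (29.5% higher, 31.4% lower), with a median log2 fold change of −1.08, against 0.03 over all genes. FGF1 against no FGF1 at day 32 gave 34 higher and 4 lower, where 45.3% passed (27.0% higher, 18.3% lower), with a median of 1.04. With sums of transcript counts FGF1 gave 35 higher and 10 lower, where 29.2% and 20.9% of all genes were so. These contrasts share the libraries of day 32 without FGF1, so their values are given side by side: Epha8 had −6.47 for day 32 without FGF1 against day 26 and 3.48 for FGF1 against no FGF1, Unc5a −4.43 and 3.90, and Sema6b −4.19 and 3.46. Of the 44 tested guidance genes with a GC content over 50%, 1 was higher and 36 lower in the first contrast, with a median of −2.16, and 34 were higher and 0 lower in the second, with a median of 1.64. Of the 24 others, 14 were higher and 2 lower, with a median of 0.57, and then 0 higher and 4 lower, with a median of −0.23. Across the 68 genes, GC content and log2 fold change correlated with r = −0.849 (rho −0.866) in the first and r = 0.877 (rho 0.887) in the second, as a description over genes of the same libraries. The contrast of day 32 without FGF1 also shares the day 26 libraries with that of the deeper libraries. In it, the genes with a GC content under 50% that rose within the deeper libraries had log2 fold changes of 2.39 (Sema3e), 2.07 (Unc5d), 1.54 (Sema5a), 1.22 (Epha7), 1.17 (Epha6), 1.05 (Unc5c), 0.63 (Sema6d) and 0.52 (Epha4). Of the 6 genes with a GC content over 50% that rose within the deeper libraries, 1 was higher, 2 were lower and 3 did not pass in that contrast. Sema5b, with a GC content over 50%, had 48.4 to 67.5 CPM in the deeper libraries with FGF1 and 2.61 to 11.1 CPM at day 32 without FGF1, against 23.1 to 31.5 CPM at day 26. CPM values were scaled within each library set, so the values without FGF1 at day 32 are not on the scale of the others.

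**Figure D5:**
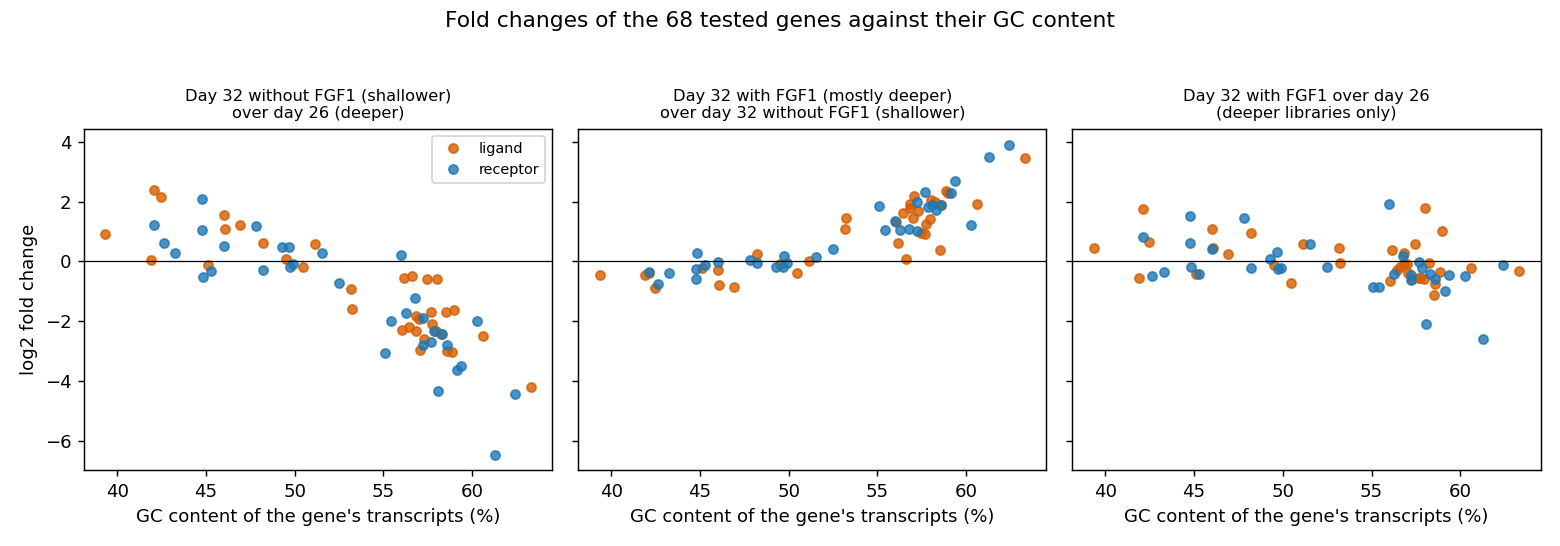
Log2 fold change (y axis) of the 68 tested guidance genes against the GC content of their transcripts (x axis, %); points are genes, coloured as ligands or receptors. The contrasts of shallower with deeper libraries (left, middle) slope with GC content (r = −0.849 and 0.877), and that within the deeper libraries (right) has r = −0.399.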

How the data were processed

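RNA was measured in 23 poly(A) libraries of mouse retinal organoids in 9 groups. Tools named, per the submitters' processing notes, are kallisto 0.45.0, Trimmomatic 0.36 and edgeR, with the build GRCm38.p6; the edgeR version is not given in the sources used here. The authors deposited expected counts (estimated, not whole) for 52143 genes and 136550 transcripts, and a separate table with a signal in normalized CPM for 18 libraries, which was used for gene names, positions and the list of libraries kept. Read assignment between near-identical paralogs cannot be checked from such counts. For the guidance genes with at least 50 counts, the gene value was 0.994 times the sum of its transcript counts in the median, with a range of 0.504 to 3.728.

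Rounded counts passed through filterByExpr and TMM scaling and were tested across all genes with the quasi-likelihood test of edgeR 4.0.16, with one mean per group in the 12 deeper libraries (6 residual degrees of freedom), medium, FGF1 and the authors' choice of libraries as terms in the 11 shallower ones (6), medium within strata (16) and one mean per group over all 23 (14). Benjamini-Hochberg adjustment ran over all genes tested, and a gene passed at an adjusted p under 0.05. Intervals (95%) are approximate. CPM values are TMM-scaled within a library set. TPM and transcript shares were computed from the deposited transcript counts with GENCODE M21 lengths (134456 of 136550 transcripts, all 70 guidance genes); GC content is from the same annotation. Software was DESeq2 1.42.0, limma 3.58.1, R 4.3.3, matplotlib 3.10.9 and Python 3.11.15, and the fits were tested on simulated data.

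The guidance genes and all lists were chosen with earlier results of these data known. Named were genes that passed and averaged 1 or more in log2 CPM (at most 15 per direction), otherwise the 3 with the smallest p, and the highest gene per family by TPM; Epha5, Ephb6, Plxnd1, Nrp2 and those below that level were named besides. Alternatives were RLE size factors, no filter, DESeq2, sums of transcript counts, a replicate block, GC offsets, all 23 libraries, the libraries kept by the authors and leaving out 1 library. Same-numbered libraries deviated together between DHA and LA without FGF1 (r of 0.228, 0.546 and 0.352), and there the block gave 0 passing genes. Promoter sequences are from RefSeq (GRCm38.p6). Sequencing depth bounds the precision of low genes such as Ntn5.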

Additional observations from a re-analysis of the deposited data

How the results depend on the processing

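Within the deeper libraries the stage comparison gave 14 genes higher and 21 lower. RLE size factors and DESeq2 gave the same counts. The counts were 16 and 27 with no filter on low counts, 16 and 21 with sums of transcript counts, 15 and 22 with a replicate block and 14 and 23 with GC offsets, and 11 genes passed with all 23 libraries, a fit that mixes library sets. Leaving out 1 library gave 27 to 38. In single media, BSA gave 23 genes with no filter, 16 by DESeq2, 2 with all 23 libraries and 0 to 11 without 1 library; LA gave 15, 14, 2 and 0 to 8; DHA gave 22, 19, 1 and 6 to 15. Between media at day 32 with FGF1, DHA against LA gave 3 genes with no filter, 2 by DESeq2, 1 with the replicate block (Sema6d, adjusted p = 0.0392) and 0 to 1 without 1 library; DHA against BSA gave 1 with no filter; LA against BSA gave 4 with no filter and 1 by DESeq2. With no filter, 1 gene passed for LA against BSA at day 26 and 1 for the interaction, and within strata 2 passed for DHA against LA and 4 for LA against BSA. The cause of these differences was not tested. The replicate block changed no other count of passing genes by over 1.5 times; at an unadjusted p under 0.05 it gave 5 genes in place of 0 for LA against BSA among the shallower libraries and 2 in place of 0 at day 26, and 2 in place of 1 for DHA against BSA within strata. A block with crossed numbers for DHA against LA at day 26, chosen after seeing the data (r = −0.121), gave 0; no such block could be fitted for FGF1 among the shallower libraries. The sign of Slit1 for LA against BSA among the shallower libraries reversed to 0.11 with the 6 libraries kept by the authors. The contrasts of library sets gave 49 to 54 genes for day and 31 to 46 for FGF1 without 1 library, and with no filter the median of all genes was 0.21 for FGF1. Of the values of single named genes under the alternatives other than leaving out 1 library, 792 kept their side of the threshold, 49 lost it, 15 gained it and 1 reversed; without 1 library 2272 kept it, 94 lost it and 1 gained it. Depth limits the genes under the filter and those near 1 CPM (Slit3, Plxnb3, Epha6, Ntn1), where few reads set each value.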
